A study of Rattus norvegicus with 15 samples.

Results

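The genes described here are the insulin-like growth factors (IGFs) Igf1 and Igf2, their receptors Igf1r and Igf2r, and the IGF binding proteins Igfbp2, Igfbp3, Igfbp4, Igfbp5 and Igfbp6. They were taken by name: every probe set whose platform annotation gave a single gene symbol equal to one of the 9 was included, whatever its signal. This gave 31 probe sets out of 18178 assigned to a single gene, and 9 genes out of 10969. Of the 31 probe sets, 20 lay above the signal floor defined below in all 5 vessel states, 2 in 3 states, 2 in 2 states, 1 in a single state and 6 in none.

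The arrays compared the ductus arteriosus of the rat, the fetal vessel that carries blood from the pulmonary artery to the aorta and closes after birth, with the aorta (its arch and thoracic parts). The fetal ductus and fetal aorta came from day 19 fetuses taken by caesarean section from dams in normal air. The oxygen ductus came from day 19 fetuses whose dams had been kept at 100% oxygen for 3 h before the section. The newborn ductus and newborn aorta came from pups 3 h after vaginal birth. Fetal vessels were dissected in medium gassed with 2.5% oxygen and newborn vessels with 12.5%, so age, the mode of birth, air breathing and the dissection medium cannot be told apart in any comparison of newborn with fetus. No strain, genotype or number of animals per array was given. Every state was hybridised once to each of the chip types A, B and C (Affymetrix), which makes 15 arrays and leaves no state with a replicate.

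IGF1 and IGF2 are secreted peptides that drive growth, survival and migration of many cells, vascular smooth muscle among them. Both signal through the IGF1 receptor, a tyrosine kinase, whereas the IGF2 receptor, which is also the mannose 6-phosphate receptor, takes IGF2 into the cell for breakdown. The binding proteins hold the peptides outside cells, carry them and, depending on the protein and on proteases that cut it, withhold them from the receptor or keep them near it. In fetal tissues Igf2 is expressed from the paternal allele and is one of the classic imprinted growth genes.

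Values are linear signal intensities. The floor was the median of all signals of a chip type, 149.8 for chip A, 241.7 for chip B and 243.0 for chip C, and any lower signal was raised to it before log2 was taken. Per array, 46.9% to 51.8% of probe sets passed it. Each gene is given at its brightest probe set, that with the highest mean over the 5 states, with its other probe sets beside it. Since probe sets differ in how well they bind, ratios were taken between states and never between probe sets. Signals of different probe sets were compared to order those of a gene, also across chips, and were summed over marker genes. A gene counted as higher or lower when its signals differed at least 1.5-fold, a log2 ratio of 0.58. With no replicates, the yardstick of error was the standard deviation (SD) of the log2 ratio of an unchanged gene, estimated for probe sets of like signal from how far the birth ratios of ductus and aorta disagreed. It was computed from the median absolute deviation and lay between 0.22 and 0.36. The oxygen arrays did not enter it, so it does not measure their error.

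Defining smooth muscle markers were present in every state, with 13 of the 13 genes on the chips above the floor, and their summed signal ran from 67297 in the fetal aorta to 141136 in the newborn ductus. Markers of other tissues moved between states too. Fat markers summed to 11841 in the newborn aorta, with 8 of 9 above the floor, against 3082 to 4594 in the other states, with 3 or 4 above it and Plin1 under the floor in all 5. Heart muscle markers summed to 34616 in the fetal and 32330 in the oxygen ductus, against 15928 to 20743 elsewhere, with Ryr2 under the floor in all 5. Liver and plasma markers summed to 3402 in the fetal aorta, with 8 of 13 above the floor, against 1186 to 1743, with 3 above it. The fetal aorta was also the highest state for leukocyte markers (7178 against 3959 to 5774, with 11 of 12 above the floor against 9 or 10), nerve and chromaffin markers (6355 against 3932 to 4970, 9 of 10 against 3 to 6), erythroid markers (61128 against 39714 to 51303, 7 of 9 in every state) and skeletal muscle markers (9830 against 6532 to 7798, 7 of 11 in every state). Endothelial markers summed to 13362 and 13674 in the newborn ductus and aorta, against 8934 to 9497 in the other states, and cartilage markers to 1772 and 1646, against 2616 to 3365. Fibroblast and matrix markers ran from 112820 in the oxygen ductus to 141180 in the newborn ductus. In tissue arrays of this kind fewer cells of a type and less RNA per cell cannot be told apart. The oxygen ductus differed from the other states in an RNA control: the signal ratio of the 3' to the 5' beta-actin probe sets was 2.95, 2.54 and 3.26 on chips A, B and C, against 1.19 to 1.51 on the other 12 arrays.

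**Figure D1:**
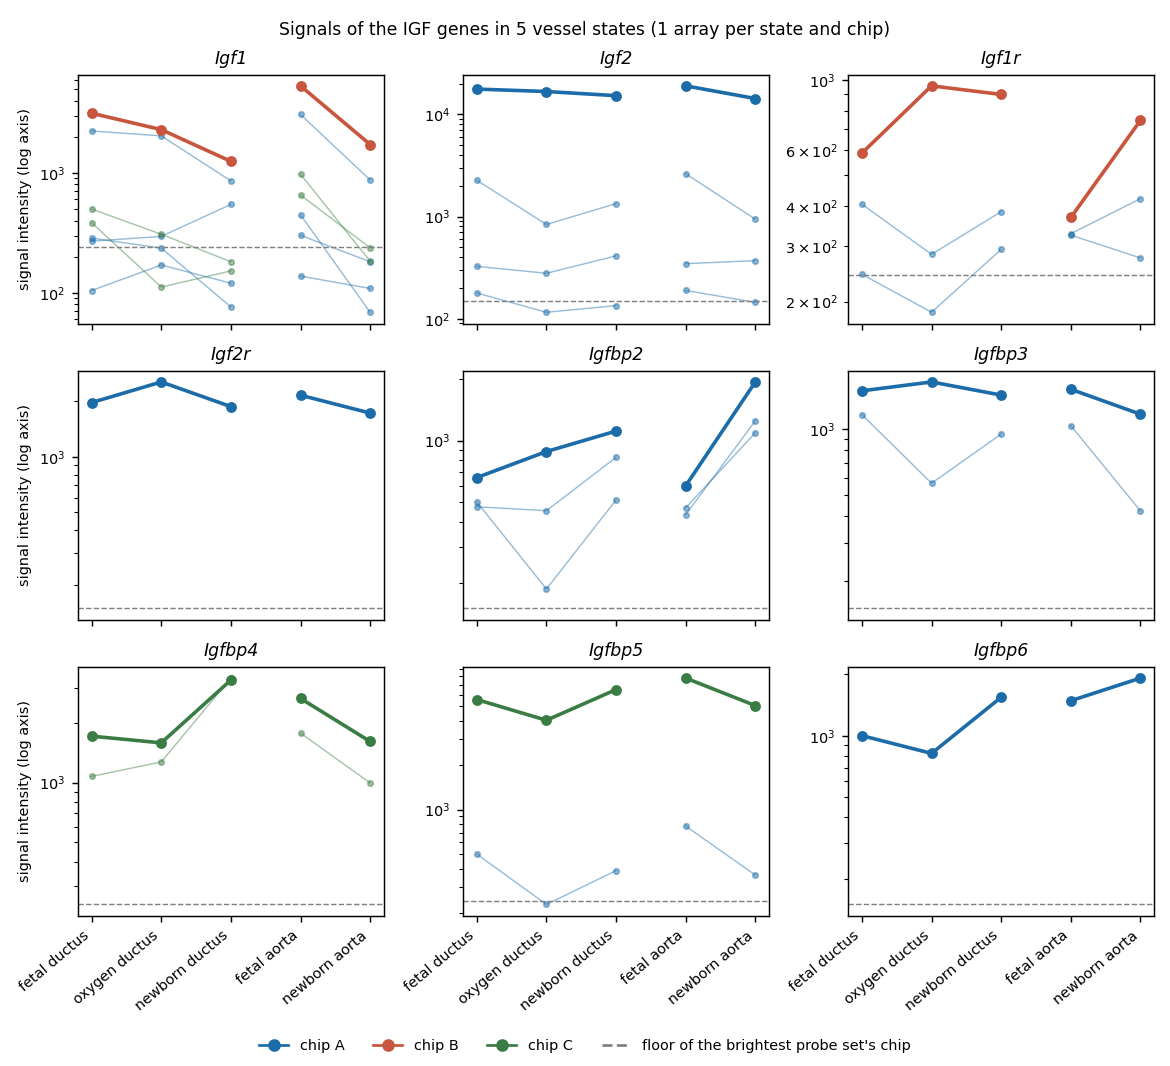
Signal intensity (vertical axis, log scale, a range of its own in each panel) of the 9 IGF genes in the 3 ductus and 2 aorta states, 1 array per point. Thick lines show the brightest probe set, thin lines the others above the floor in any state, colours the chip type, and the dashed line the floor of the brightest probe set's chip. Igf1 ran from 5320 in the fetal aorta to 1247 in the newborn ductus, and Igfbp4 was highest in the newborn ductus at 3289.

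At the brightest probe sets Igf1 and Igfbp2 had the largest birth ratios of the 9 genes in the aorta. Of the 9, Igfbp4 alone had, at its brightest probe set, birth ratios past 1.5-fold in opposite directions in ductus and aorta. How many of all genes had such a pair was not counted. The 250 bases before the annotated starts of Igf1, Igfbp2 and Igfbp4 are printed here to show what kind of promoter each has. RefSeq windows (GRCr8) were found for all 9 genes, 10 windows in all, since Igf2 has 2. The sequences run 5' to 3' along the gene, all 3 on the plus strand. Capitals mark matches on either strand to TATAAA (the TATA box), GGGCGG (the GC box), CCAAT (the CCAAT box), TGACG (core of the cAMP response element), ACGTG (core of the hypoxia response element) and AGAACA (a core of glucocorticoid receptor sites, here called the glucocorticoid motif).
Igf1, chr7:24172282-24172531: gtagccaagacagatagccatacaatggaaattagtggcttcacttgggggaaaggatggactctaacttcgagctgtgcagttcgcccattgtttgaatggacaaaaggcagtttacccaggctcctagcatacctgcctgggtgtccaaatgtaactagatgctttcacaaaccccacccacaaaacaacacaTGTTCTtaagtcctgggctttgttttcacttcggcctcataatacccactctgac
Igfbp2, chr9:81864561-81864810: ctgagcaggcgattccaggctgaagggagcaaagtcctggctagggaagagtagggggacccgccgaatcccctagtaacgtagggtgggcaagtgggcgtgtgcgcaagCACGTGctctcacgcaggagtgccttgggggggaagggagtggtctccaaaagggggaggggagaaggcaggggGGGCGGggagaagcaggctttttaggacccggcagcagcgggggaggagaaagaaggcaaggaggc
Igfbp4, chr10:84491221-84491470: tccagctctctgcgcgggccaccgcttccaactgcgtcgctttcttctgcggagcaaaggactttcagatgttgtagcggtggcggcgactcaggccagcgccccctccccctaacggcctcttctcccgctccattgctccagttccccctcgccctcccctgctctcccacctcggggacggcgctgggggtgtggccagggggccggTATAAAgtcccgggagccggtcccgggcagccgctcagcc
In windows of 300 bases, which add 50 bases after the start, Igf1 held 1 match, to the glucocorticoid motif on the opposite strand, 55 bases before the start. Igfbp2 held a GC box 66 bases before the start and an ACGTG on each strand, 140 and 139 bases before it, which overlap in a single palindrome. Igfbp4 held a TATA box 40 bases before the start and no other match. Of all 33469 rat windows of this length, 20.7% held the glucocorticoid motif, 33.1% the GC box, 19.3% the ACGTG core, 14.2% the TATA box, 37.5% CCAAT and 21.2% TGACG. The share of G and C was 48.3% for Igf1, 66.7% for Igfbp2 and 71.0% for Igfbp4, against a median of 51.7% over all windows. These matches describe letters, and no binding was measured.

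Igf1 (Entrez gene 24482), the growth hormone-regulated IGF that is also made locally in vessel walls, was lower after birth in both vessels. Its brightest probe set (rc_AA945615_at, chip B) gave 3144 in the fetal ductus, 2295 in the oxygen ductus, 1247 in the newborn ductus, 5320 in the fetal aorta and 1724 in the newborn aorta. The fetal aorta was the highest state and both newborn vessels were the lowest. The newborn ductus was 2.52-fold lower than the fetal ductus and the newborn aorta 3.09-fold lower than the fetal aorta, with log2 ratios of -1.33 and -1.63 against a yardstick SD of 0.30. In limma, fitted to the 4 fetal and newborn arrays of a chip with terms for vessel and for birth, the birth effect on Igf1 was -1.48 (SE 0.22, limma adjusted p = 0.013 over the probe sets of the chip). With 1 residual degree of freedom, the disagreement of the vessels' birth changes serves as the error of that fit, so its p-values rest on a thin base. The Igf1 call was lost with a floor at the 25th percentile (limma adjusted p = 0.20) and with no filter on low signals (0.59), where no probe set of any gene passed, and its adjusted p was 0.029 or less in the other 5 alternative settings.

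The other Igf1 probe sets mostly went the same way. On chip A, M15481_g_at went from 2235 (fetal) to 857 (newborn) in the ductus and from 3069 to 872 in the aorta, and it fell with birth by 1.60 on the log2 scale (SE 0.21, limma adjusted p = 0.016). D00698_s_at, above the floor in the 3 fetal states only, fell by 1.25 (SE 0.22, limma adjusted p = 0.039), with the newborn signals of 76.1 and 68.7 set to the floor. On chip C, rc_AI112964_at and rc_AI236066_at were above the floor in the fetal and under it in the newborn vessels, with birth effects of -1.52 and -1.04 that did not pass limma (adjusted p = 0.074 and 0.11). M15481_at went against these in the ductus: it went from 269 (fetal) to 546 (newborn) in the ductus, but from 301 to 181 in the aorta. It shares its source sequence name with M15481_g_at, and its birth effect was 0.14 (limma adjusted p = 0.89). X06107_r_at passed the floor in the oxygen ductus alone, and X06107_i_at and rc_AI058326_at in no state. With the mean of all Igf1 probe sets in place of the brightest, the ductus birth ratio was -0.48, under 1.5-fold, and the aorta one -1.02. With quantile normalization, or scaling to a common median, limma called the brightest and both chip C probe sets and no longer those of chip A.

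At its brightest probe set Igf1 also passed 1.5-fold between the fetal vessels, but not between the newborn ones. The fetal ductus was 1.69-fold lower than the fetal aorta (log2 ratio -0.76) and the newborn ductus 1.38-fold lower than the newborn aorta (-0.47). All 5 of the Igf1 probe sets above the floor in both fetal arrays other than the brightest had ratios below 0 in the fetus, from -0.97 for rc_AI112964_at to -0.16 for M15481_at. In the newborn M15481_g_at was at -0.02 and M15481_at at 1.59, and with the mean of all Igf1 probe sets the ratio was -0.42 before and 0.12 after birth. The vessel effect of the brightest was -0.61 and did not pass limma (adjusted p = 0.54).

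Igf2 (Entrez gene 24483), the main IGF of fetal tissues, was nearly level at its brightest probe set. X17012mRNA_s_at (chip A) gave 17721 in the fetal ductus, 16776 in the oxygen ductus, 15280.1 in the newborn ductus, 19060.3 in the fetal aorta and 14327 in the newborn aorta. Its highest and lowest states lay 1.33-fold apart, and each neighbouring pair in the order of states was within 1 SD of 0.22. Its birth log2 ratios were -0.21 in the ductus and -0.41 in the aorta (limma effect -0.31, adjusted p = 0.44). The second brightest, E00988mRNA_s_at, gave another picture, with 2271 in the fetal ductus, 837 in the oxygen ductus, 1340.0 in the newborn ductus, 2630.2 in the fetal aorta and 943 in the newborn aorta. From fetus to newborn it was 1.69-fold lower in the ductus and 2.79-fold lower in the aorta, and its birth effect of -1.12 (SE 0.23) missed the threshold at a limma adjusted p of 0.054. M17960_g_at was between 279 and 412 in all states, with birth ratios of 0.34 and 0.10. The annotation does not say which Igf2 transcripts each probe set reads, and M17960_at passed the floor only in the fetal ductus and fetal aorta while the X16703 pair passed it nowhere.

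**Figure D2:**
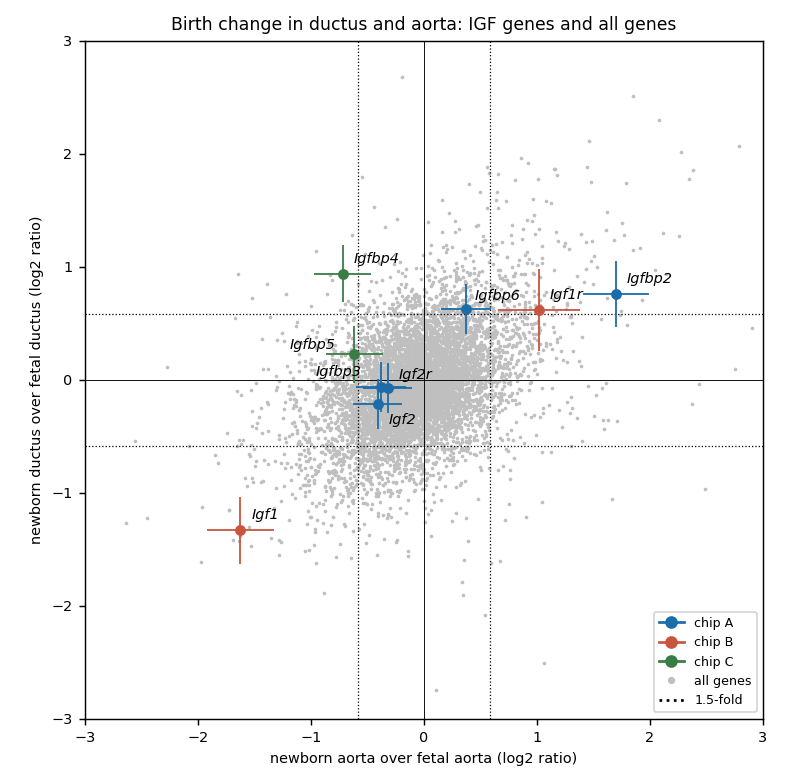
Log2 ratio of newborn to fetal signal in the aorta (horizontal axis) and the ductus (vertical axis) for the 9 IGF genes, coloured by chip type, and for 7278 genes measured in both (grey, 5 beyond the axes). Bars are 1 yardstick SD of an unchanged gene and dotted lines mark 1.5-fold. Igf1 lies low in both vessels, Igfbp2 and Igf1r high in both, and Igfbp4 is high in the ductus (0.94) and low in the aorta (-0.72).

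Igf1r (Entrez gene 25718), the tyrosine kinase receptor of both peptides, was higher after birth at its brightest probe set. rc_AA956982_at (chip B) gave 587 in the fetal ductus, 957 in the oxygen ductus, 899 in the newborn ductus, 368 in the fetal aorta and 745 in the newborn aorta. The fetal aorta was the lowest state, and no neighbouring pair in the order of states was more than 2 SD of 0.36 apart. The newborn was 1.53-fold higher than the fetus in the ductus and 2.02-fold in the aorta, and the birth effect of 0.82 (SE 0.23) did not pass limma (adjusted p = 0.090). The other Igf1r probe sets, both on chip A, did not share this: L29232_at gave birth ratios of -0.08 in the ductus and 0.37 in the aorta, and M27293_s_at gave 0.26 and -0.24. Between the fetal vessels the log2 ratio of ductus over aorta was 0.67 at the brightest, 0.31 at L29232_at and -0.41 at M27293_s_at. At M27293_s_at the fetal aorta was the highest state. The 1.5-fold calls on Igf1r thus rest on a single probe set. Even there the ratio between the fetal vessels was under 1.5-fold with a floor at 2 medians (0.28) and with the median added to signals (0.44).

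Igf2r (Entrez gene 25151), the clearance receptor of IGF2, has a single probe set, U59809_s_at on chip A. It gave 1971 in the fetal ductus, 2552 in the oxygen ductus, 1875 in the newborn ductus, 2162 in the fetal aorta and 1729 in the newborn aorta. The states spanned 1.48-fold, with no ratio past 1.5-fold in any of the 6 comparisons. Its birth effect was -0.20 (SE 0.20, limma adjusted p = 0.66).

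Igfbp2 (Entrez gene 25662), a binding protein abundant in fetal life, was higher after birth, more so in the aorta. J04486_at (chip A) gave 659 in the fetal ductus, 884 in the oxygen ductus, 1114 in the newborn ductus, 599.5 in the fetal aorta and 1943 in the newborn aorta. The newborn aorta stood above the newborn ductus by 0.80 on the log2 scale, more than 2 SD of 0.29, and the fetal vessels were the lowest. The newborn was 1.69-fold higher than the fetus in the ductus and 3.24-fold in the aorta, and the birth effect of 1.23 (SE 0.26) had a limma adjusted p of 0.054. A09811cds_s_at, with 473 and 827 in the fetal and newborn ductus and 432 and 1252 in the fetal and newborn aorta, rose with birth by 1.17 (SE 0.23, limma adjusted p = 0.048), a call that was lost in 5 of the 7 alternative settings. M91595exon_s_at was higher in the newborn than in the fetal aorta (1093 against 467, a log2 ratio of 1.23) but level in the ductus (511 against 500), and its birth effect of 0.63 had a limma adjusted p of 0.29. In the newborn the ductus was lower than the aorta at all 3 probe sets, with log2 ratios of -0.80, -0.60 and -1.10. The newborn aorta was also the state with the highest summed fat markers, 11841 against 4594 in the newborn ductus, and their part in the Igfbp2 signal was not tested.

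Igfbp4 (Entrez gene 360622), a binding protein that holds IGFs from their receptor until proteases such as Pappa cut it, differed in opposite directions in the vessels across birth. rc_AI231076_at (chip C) gave 1715 in the fetal ductus, 1586 in the oxygen ductus, 3289 in the newborn ductus, 2657 in the fetal aorta and 1612 in the newborn aorta. The newborn ductus was the highest state, with the fetal aorta next and the other 3 states within 0.11 of each other on the log2 scale. The newborn ductus was 1.92-fold higher than the fetal ductus (log2 ratio 0.94), while the newborn aorta was 1.65-fold lower than the fetal aorta (-0.72), against a yardstick SD of 0.25. The second probe set, rc_AA858528_s_at of the same chip, gave 1075, 1271 and 3365 in the fetal, oxygen and newborn ductus and 1777 and 995 in the fetal and newborn aorta. Its birth ratios were 1.65 in the ductus and -0.84 in the aorta, so the vessels' birth ratios differed by 1.66 at the brightest and by 2.48 at the second probe set. Igfbp4 was thus lower in the ductus than in the aorta before birth (ratios -0.63 and -0.73) and higher after it (1.03 and 1.76). The additive fit takes such a difference as error and gave a birth effect of 0.11 (SE 0.36, limma adjusted p = 0.90), so the difference between the vessels itself was not tested.

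**Figure D3:**
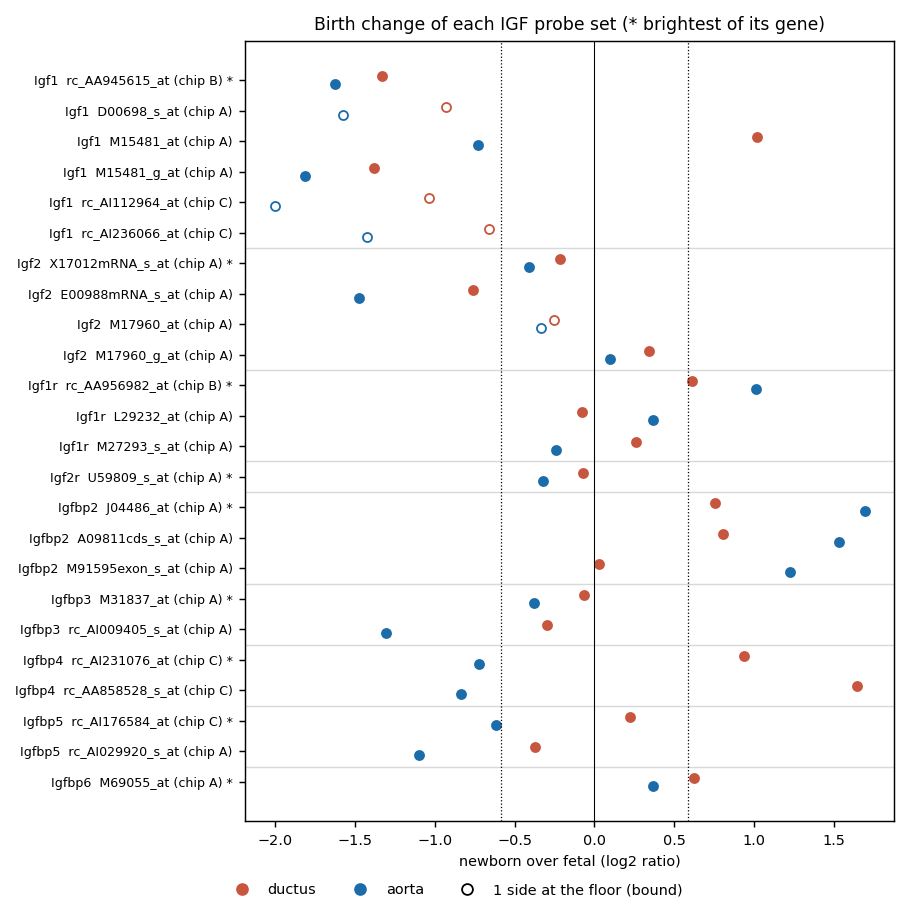
Log2 ratio of newborn to fetal signal (horizontal axis) for each IGF probe set with a signal above the floor in a fetal or newborn array of the vessel, red for ductus and blue for aorta. Open circles are bounds with 1 side at the floor, dotted lines mark 1.5-fold and an asterisk the brightest probe set of a gene. Both Igfbp4 probe sets have the ductus to the right of 0 and the aorta to the left, while M15481_at is the single Igf1 probe set with a ductus ratio above 0.

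Igfbp5 (Entrez gene 25285), which binds IGFs and extracellular matrix and lies next to Igfbp2 on chromosome 9, was close to level across birth in the ductus. rc_AI176584_at (chip C) gave 5556 in the fetal ductus, 4024 in the oxygen ductus, 6486 in the newborn ductus, 7761 in the fetal aorta and 5056 in the newborn aorta. The ductus birth ratio was 0.22 and the aorta one -0.62, a 1.53-fold lower signal. On chip A rc_AI029920_s_at gave 501 and 387 in the fetal and newborn ductus and 774 and 361 in the fetal and newborn aorta, with birth ratios of -0.37 and -1.10. Neither birth effect passed limma (-0.20, adjusted p = 0.70, and -0.74, adjusted p = 0.14), and M62781_at and rc_AI070577_at were under the floor throughout.

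Igfbp3 (Entrez gene 24484), the main carrier of IGFs in blood plasma, gave 1506 in the fetal ductus, 1655 in the oxygen ductus, 1439 in the newborn ductus, 1531 in the fetal aorta and 1175 in the newborn aorta at M31837_at (chip A). The states spanned 1.41-fold and none of the 6 ratios passed 1.5-fold. Its second probe set, rc_AI009405_s_at, gave 1170.3, 565 and 953 in the fetal, oxygen and newborn ductus and 1041 and 421 in the fetal and newborn aorta. There the newborn aorta was 2.47-fold below the fetal aorta (birth effect -0.80, SE 0.27, limma adjusted p = 0.15).

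Igfbp6 (Entrez gene 25641), which binds IGF2 in preference to IGF1, has a single probe set, M69055_at on chip A. It gave 1003 in the fetal ductus, 822 in the oxygen ductus, 1546 in the newborn ductus, 1487 in the fetal aorta and 1919 in the newborn aorta. The gap between the fetal aorta and the fetal ductus was 0.57, more than 2 SD of 0.22, while the newborn ductus and fetal aorta lay within 0.06. The newborn was 1.54-fold higher than the fetus in the ductus and 1.29-fold in the aorta, with a birth effect of 0.50 (SE 0.20, limma adjusted p = 0.23).

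More of the IGF genes passed 1.5-fold with birth than between vessels, as did more of all genes. In newborn against fetal ductus 4 of the 9 were higher (Igf1r, Igfbp2, Igfbp4 and Igfbp6), where 7.56% of 7551 genes were, and 1 was lower (Igf1), where 9.59% were. In newborn against fetal aorta 2 were higher (Igf1r and Igfbp2), where 7.57% of 7676 genes were, and 3 were lower (Igf1, Igfbp4 and Igfbp5), where 11% were. The median log2 ratio of the 9 was 0.22 in the ductus and -0.38 in the aorta, beside -0.05 over all genes in each. Averaged over all probe sets of a gene, those at the floor included, Igf1 (-0.48), Igf1r (0.27) and Igfbp2 (0.53) were no longer past 1.5-fold in the ductus, nor Igf1r (0.38) and Igfbp5 (-0.43) in the aorta, where Igfbp3 then passed (-0.84). With the median added to signals in place of a floor, Igf1r (0.46) and Igfbp6 (0.56) were under 1.5-fold in the ductus. Several marker lists also differed with birth, and their part in the IGF values was not tested. In the ductus 8 of 13 smooth muscle, 7 of 12 endothelial and 4 of 10 leukocyte markers were higher (0 lower). Heart muscle markers were lower there for 8 of 12 (0 higher). Higher in the aorta were 7 of 13 endothelial (1 lower), 6 of 8 fat (0 lower) and 5 of 13 smooth muscle markers (0 lower). Lower there were 7 of 9 nerve and chromaffin (0 higher) and 5 of 11 leukocyte markers (1 higher). So were 4 of 8 erythroid (2 higher) and 4 of 8 liver and plasma markers (0 higher). Of the 24 IGF probe sets in the limma fit, 4 passed for birth (3 of Igf1, lower, and 1 of Igfbp2, higher), where 1.69% of all 13810 did. At an unadjusted p under 0.05 there were 12 of the 24, beside 18.6% of all. Probe sets of a gene are not independent of each other.

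Between vessels the counts were smaller. In fetal ductus against fetal aorta 1 IGF gene was higher (Igf1r), where 4.2% of 7610 genes were, and 2 were lower (Igf1 and Igfbp4), where 5.1% were. In the newborn 1 was higher in the ductus (Igfbp4), where 6.16% of 7528 genes were, and 1 was lower (Igfbp2), where 5.98% were. The median of the 9 was -0.13 in the fetus, beside -0.02 over all genes, and 0.12 in the newborn, beside -0.01. For the vessel effect limma called none of the 24 IGF probe sets and 0.0362% of all 13810, while 2 of the 24 and 7.75% of all had an unadjusted p under 0.05. The fetal arrays enter both the vessel and the birth comparisons. The high Igf1 and Igfbp4 and the low Igf1r of the fetal aorta, at their brightest probe sets, thus count in each. The fetal aorta was also the state with the highest summed leukocyte, nerve and chromaffin, erythroid and liver markers. Against it the fetal ductus was at least 1.5-fold lower for 6 of 11 leukocyte, 7 of 9 nerve and chromaffin, 6 of 8 erythroid and 4 of 8 liver and plasma markers (0 higher in each). It was at least 1.5-fold higher for 11 of 12 heart muscle (0 lower), 9 of 13 smooth muscle (0 lower) and 3 of 4 cartilage markers (1 lower). The part of these lists in the IGF values was not tested.

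At their brightest probe sets, IGF genes past 1.5-fold between the oxygen and fetal ductus were about as frequent as among all genes. In oxygen against fetal ductus 1 of the 9 was higher (Igf1r, 1.63-fold), where 4.44% of 7457 genes were, and none was lower, where 5.38% were. Igf1 had a log2 ratio of -0.45, Igfbp5 one of -0.47, Igfbp2 0.42 and Igf2r 0.37, each under 2 yardstick SDs (estimated without the oxygen arrays), and Igfbp4 was at -0.11. Other probe sets disagreed with several of these. Lower in the oxygen ductus were E00988mRNA_s_at of Igf2 (-1.44), M91595exon_s_at of Igfbp2 (-1.42), rc_AI029920_s_at of Igfbp5 (-1.13) and rc_AI009405_s_at of Igfbp3 (-1.05), and both chip A probe sets of Igf1r were below 0 (-0.52 and -0.40). Of Igf1, both chip C probe sets passed 1.5-fold too: rc_AI112964_at was 1.62-fold lower with oxygen (-0.70), and rc_AI236066_at, under the floor there, at least 1.58-fold lower. The other Igf1 probe sets above the floor in both arrays were at -0.28 (D00698_s_at), -0.13 (M15481_g_at) and 0.13 (M15481_at). Over all genes with several probe sets, a partner of a probe set past 1.5-fold went the same way in 57.0% of 1183 ordered pairs in this comparison, against 76.5% to 83.3% in the 4 comparisons without the oxygen ductus. The 3' to 5' ratios of Gapdh and beta-actin were highest on the oxygen arrays of all 3 chips. That of hexokinase was highest there on chips A and C, but on chip B it was 3.44 against 3.78 in the fetal aorta. The part of RNA quality in these ratios was not tested.

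**Figure D4:**
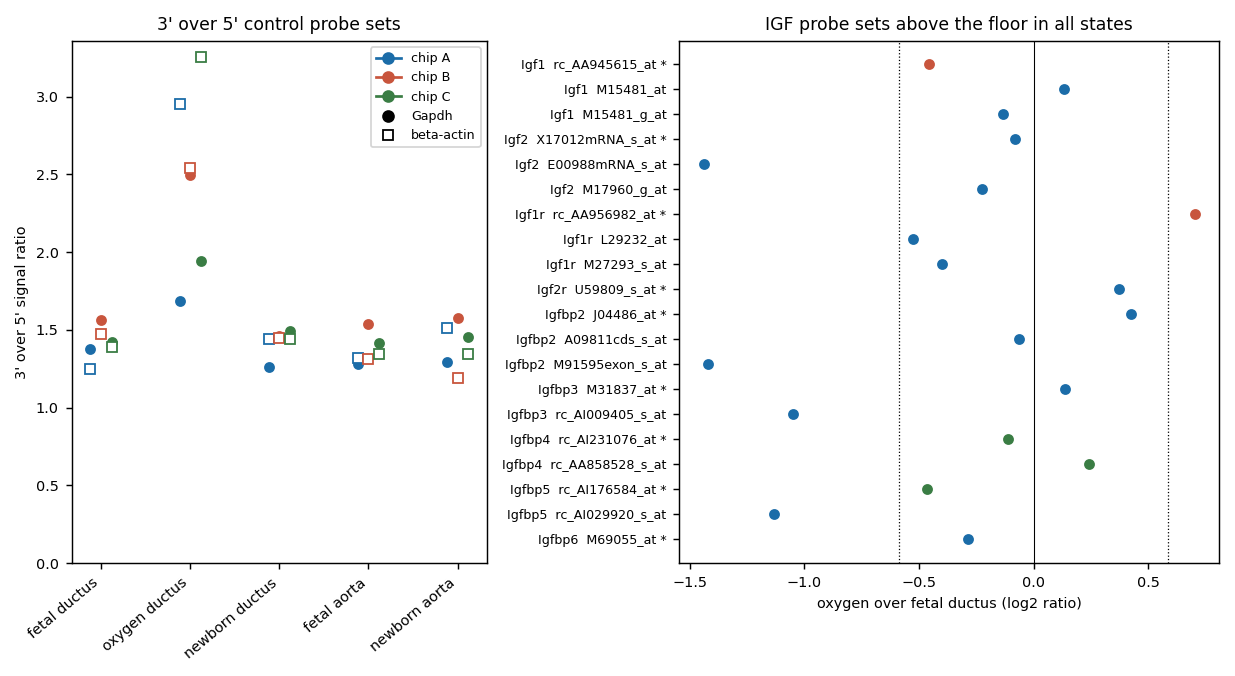
Left, signal ratio of the 3' to the 5' control probe sets of Gapdh (filled circles) and beta-actin (open squares) in each state, coloured by chip type. Right, log2 ratio of the oxygen to the fetal ductus for the IGF probe sets above the floor in all states, with dotted lines at 1.5-fold and an asterisk for the brightest probe set of a gene. The beta-actin ratios of the oxygen ductus lie at 2.54 to 3.26, above all others, and 4 of the IGF probe sets lie left of -1, none of them the brightest of its gene.

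Newborn ductus was also set against oxygen ductus. These states differed in age, mode of birth, air breathing and dissection medium, so the part of oxygen cannot be told apart. Higher in the newborn were 3 of the 9 (Igfbp4 2.07-fold, Igfbp6 1.88-fold and Igfbp5 1.61-fold), where 10.5% of 7534 genes were, and 1 was lower (Igf1, 1.84-fold), where 14.5% were. Igf1r was at -0.09 and Igfbp2 at 0.33. Their other probe sets were higher in the newborn: Igfbp2 was at 0.87 (A09811cds_s_at) and 1.45 (M91595exon_s_at), and Igf1r at 0.45 (L29232_at) and 0.66 (M27293_s_at). The second probe sets of Igfbp3 (0.75) and Igf2 (0.68) also passed 1.5-fold, where their brightest were at -0.20 and -0.13. Those of Igfbp4 and Igfbp5 went with the brightest, at 1.40 and 0.76. A partner of a probe set past 1.5-fold went the same way in 67.8% of 2153 ordered pairs over all genes, and the part of the high 3' to 5' ratios of the oxygen arrays was not tested here either. This comparison and that of oxygen with fetal ductus share the oxygen arrays. Read at the same probe set, Igfbp4 stood at -0.11 with oxygen and 0.94 with birth over the same fetal ductus, Igfbp6 at -0.29 and 0.62, Igf1 at -0.45 and -1.33, Igfbp2 at 0.42 and 0.76, and Igf1r at 0.70 and 0.61.

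Other genes of the IGF axis, the ligands, carriers, proteases and mRNA binders outside the 9, had 2 to 5 members past 1.5-fold in each comparison. Of the 23 listed, 18 were on the chips and 14 or 15 measured per comparison, and Igfbp1, Gh1 and Vtn were under the floor in all states. In the ductus 2 of 14 were higher after birth (14.3%, where 7.56% of all genes were) and 1 was lower (7.14%, where 9.59% were), with a median of 0.27. In the aorta 3 of 14 were higher (21.4%, where 7.57% of all genes were) and 2 were lower (14.3%, where 11% were), with a median of -0.04. Igfbp7, a secreted relative of the binding proteins that binds IGFs weakly, was higher in both newborn vessels, with 4773 and 9129 in the fetal and newborn ductus and 4613 and 9039 in the fetal and newborn aorta. Igf2bp3, which binds Igf2 mRNA and is a fetal gene, was lower in both, with log2 ratios of -0.77 in the ductus and -1.17 in the aorta. Ghr, the growth hormone receptor, was 0.91 higher on the log2 scale in the newborn than in the fetal ductus. Its newborn ductus signal (351) was at least 2.34-fold above that of the newborn aorta, which was under the floor. In the aorta Stc1, whose product inhibits the Pappa protease, was 0.69 higher after birth, Htra1, a secreted protease, 0.61 higher and Ins1 0.77 lower (log2 ratio -0.77). Between the vessels Plat, the tissue plasminogen activator, was higher in the ductus in the fetus (0.69) and the newborn (0.65), and Pcsk6, a proprotein convertase, in the fetus (0.64). That makes 2 of 15 higher in the fetal comparison, where 4.2% of all genes were (median -0.03), and 2 higher and 1 lower of 15 in the newborn one, where 6.16% and 5.98% were (median 0.22). Plg, plasminogen, was at least 1.51-fold lower in the ductus of newborns. In the oxygen ductus Ghr was 0.70 higher and Ins1 was at -0.82 (1 higher and 1 lower of 14, where 4.44% and 5.38% of all genes were, median 0.01). Newborn against oxygen ductus had 3 higher and 1 lower of 14, where 10.5% and 14.5% of all genes were, with a median of 0.24: Igfbp7 (0.92), Ins1 (0.78), Ins2 (0.63) and Igf2bp3 (-0.96).

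Of genes of insulin and IGF receptor signalling, 1 to 8 passed 1.5-fold in each comparison. Of the 47 listed, 39 were on the chips and 30 to 32 measured, with Irs1, Irs3, Pik3r3, Pik3cb, Socs2 and Socs3 under the floor in all states. After birth 5 of 31 were higher in the ductus (16.1%, where 7.56% of all genes were) and 2 lower (6.45%, where 9.59% were), with a median of 0.14. In the aorta 3 of 31 were higher (9.68%, where 7.57% of all genes were) and 2 lower (6.45%, where 11% were), with a median of -0.02. Pik3r1, the regulatory subunit of PI3 kinase, was 0.84 higher in the newborn than in the fetal ductus, Foxo3, a transcription factor held back by the kinase Akt, 0.80, the adaptor Sh2b2 0.79 and the kinase Gsk3a 0.72. The adaptors Sh2b1 and Grb10 were lower there, at -0.89 and -0.66, and Grb10, which binds and restrains insulin and IGF1 receptors, was at -1.09 in the aorta, with Tsc2 at -0.69. Sh2b2 (0.80) and Pik3r1 (at least 1.68-fold) were higher in the newborn aorta. Akt1 had 1373 in the fetal aorta against 3611 in the fetal ductus and 3505 in the newborn aorta, so that its ratios of 1.39 between the fetal vessels and 1.35 with birth in the aorta share 1 low array. Beside Akt1, Pik3r1 was higher in the ductus of the fetus (2 higher and 0 lower of 32, where 4.2% and 5.1% of all genes were, median -0.09), by at least 1.57-fold, and in the newborn Pik3r1 alone passed (0.74, 1 of 30 higher, where 6.16% of all genes were, median 0.03). With oxygen 1 of 32 was higher, the adaptor Shc1 (0.69), and 3 were lower, Pik3ca (-0.80), Insr (at least 1.66-fold) and Pik3r1 (at least 1.57-fold), where 4.44% and 5.38% of all genes were, with a median of 0.05. Newborn against oxygen ductus had 7 higher and 1 lower of 32, where 10.5% and 14.5% of all genes were (median -0.03), led by Pik3r1 (at least 2.81-fold), Insr (at least 2.01-fold), Eif4ebp1 (0.94) and Insrr (0.85), with Sh2b1 at -0.76.

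Imprinted genes of fetal growth, a class to which Igf2 belongs, were lower in the newborn aorta. Of the 17 listed, 13 were on the chips and 11 measured, and Phlda2 and Ascl2 were under the floor. In newborn against fetal aorta 8 of the 11 were lower (72.7%, where 11% of all genes were) and 1 was higher (9.09%, where 7.57% were), with a median of -0.83 beside -0.05 over all genes. Cdkn1c, an inhibitor of the cell cycle, was at -1.54, Dlk1 at -1.23, the transcription factor Plagl1 at -1.12 and Grb10 at -1.09, while Nnat was at 1.31. H19, the untranslated RNA next to Igf2, named here after its value was seen, was 23997 in the fetal and 14971 in the newborn aorta, a log2 ratio of -0.68 beside -0.41 for the brightest Igf2 probe set. Other Igf2 probe sets were at -1.48 (E00988mRNA_s_at) and 0.10 (M17960_g_at) in that comparison. In the ductus 3 of the 11 were lower after birth (Cdkn1c at -1.47, Ndn at -0.69 and Grb10 at -0.66), where 9.59% of all genes were, none was higher, where 7.56% were, and the median was -0.34. Between the fetal vessels 2 were lower in the ductus (Meg3 at -0.95 and Dlk1 at -0.61, median -0.28), where 5.1% of all genes were. In the newborn Nnat (-1.62) and Meg3 (-0.65) were lower, where 5.98% of all genes were, and Sgce (0.62) higher, where 6.16% were (median 0.18). With oxygen none passed 1.5-fold (median -0.08), and in newborn against oxygen ductus 4 were lower, among them Cdkn1c (-1.66) and Plagl1 (-0.71), where 14.5% of all genes were, and 1, Dcn (0.65), was higher, where 10.5% were (median -0.18).

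Genes with the most similar pattern over the 5 states were sought on the same chip for each IGF gene whose brightest probe set spanned at least 2-fold, among genes above the floor in all 5. Likeness was the root mean square distance of log2 signals, each centred on its own mean. For Igf1 the nearest of 2112 genes were Bltp1 (0.27), Trip13 (0.30) and Smg5 (0.30). For Igf1r they were Nub1 (0.08), Ppp1r14a (0.12) and Zyx (0.13). For Igfbp2 the nearest of 1904 genes were the collagen Col15a1 (0.17), the fatty acid oxidation enzyme Acadm (0.22) and Txnip (0.22), and for Igfbp6 Padi3 (0.06), Eif4ebp1 (0.07) and Gak (0.07). For Igfbp4 the nearest of 2227 genes were Krt4 (0.20), Spag9 (0.21) and Tmx1 (0.21). With 5 points each, such nearness is a description only.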

How the data were processed

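RNA of 5 vessel states was hybridised to 3 Affymetrix chip types, 1 array each. The authors deposited linear signal intensities, made with MAS5 per the submitters' processing notes for 4 of the 5 chip A arrays, with no software given for the other arrays in the sources used here. With 2% cut from each end, array means were 500.3 to 500.9, so the intensities had been scaled before deposit, and they were not scaled again. The newborn aorta of chip A is titled post coitum but described as newborn, and was taken as newborn. States of chips B and C come from titles.

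Control probe sets were left out. Gene names come from the platform annotation. All 9 gene numbers were found in a RefSeq gene table (GRCr8) under unchanged symbols. Vessel and birth effects were fitted with limma 3.58.1 in R 4.3.3, per chip, where 2 or more of the 4 arrays passed the floor, and Benjamini-Hochberg adjusted p under 0.05 was called. The fit was tested on simulated data, with equal normal noise for all probe sets and the same known birth changes in both vessels. That test does not measure the error of these arrays. Alternatives were other floors (25th percentile, 2 medians), quantile or median scaling, the median added in place of a floor, the mean of all probe sets, the second brightest probe set (chosen after its values were seen), a 2-fold threshold, an intensity trend and no filter. The 9 genes, the lists and the markers were chosen with earlier results of these data known. All 9 were named, and from each list up to 4 genes each way per comparison with the largest change past 1.5-fold. Folds with a side at the floor are lower bounds.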

Additional observations from a re-analysis of the deposited data

Results flagged for a closer look

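Igfbp4 was flagged because its birth changes in ductus and aorta were past 1.5-fold in opposite directions at its brightest probe set, and also at its second. At the brightest the ductus ratio minus the aorta ratio was 1.66 on the log2 scale, from 0.94 and -0.72, and at the second 2.48, from 1.65 and -0.84. With 1 array per state this difference was not tested. Of the Igf1 probe sets, M15481_at also had birth ratios past 1.5-fold in opposite directions, 1.02 in the ductus and -0.73 in the aorta. The share of all genes with such a pair was not counted.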

How the results depend on the processing

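Of 378 ratios of the 9 genes recomputed under 7 alternative settings, 316 moved by less than the yardstick SD and 62 by more. The floor at the 25th percentile could move none of its 54, as all brightest probe sets lay above the main floor in all states. With the doubled floor 52 of 54 moved by less than the SD. The mean of all probe sets left 33 of 54 within the SD, and the second brightest 24 of 54. Igf2r and Igfbp6, with a single probe set each, could not move in either of those. Of the 378, 25 changed sign. Of these 25, 16 lay in the 2 comparisons with the oxygen ductus, and 22 were of ratios under 1.5-fold, such as Igf1 between the newborn vessels (-0.47, and 0.12 with the mean of probe sets), Igfbp5 for birth in the ductus (0.22, and -0.37 at the second brightest) and, with oxygen, Igfbp2 (0.42, and -0.35 with the mean) and Igfbp3 (0.14, and -1.05 at the second brightest). The 3 of ratios past 1.5-fold were of Igf1r: its birth ratio in the ductus was -0.0775 at the second brightest probe set, and its oxygen ratio was -0.0726 with the mean of all probe sets and -0.52 at the second brightest. Igf1, Igfbp2 and Igfbp4 kept their direction past 1.5-fold for birth in the aorta under all 7, as did Igfbp4 for birth in the ductus, whereas Igf1 in the ductus was at -0.48 with the mean of all probe sets. The number of genes past 1.5-fold between the fetal vessels went from 3 to 5 with quantile normalization, to 1 with the median added to the signal, to 1 with the mean of probe sets and to 0 at 2-fold. Between the newborn vessels it went from 2 to 1 at 2-fold. For birth in the ductus it went from 5 to 3 with the median added, 2 with the mean of probe sets and 1 at 2-fold, and in the aorta from 5 to 3 at 2-fold. For oxygen it went from 1 to 3 with scaling to a common median, 3 at the second brightest, and 0 with the median added, with the mean of probe sets and at 2-fold. Newborn against oxygen ductus went from 4 to 7 at the second brightest and to 1 at 2-fold. Scaling to a common median moved the median of all genes from 0.04 to 0.22 for oxygen and from -0.09 to -0.23 for newborn against oxygen ductus, and those ratios are relative to such shifts. Of the 9 genes at their brightest probe set, limma called 1 for birth (Igf1), 2 with the floor doubled, 2 with an intensity trend, 0 with the floor at the 25th percentile and 0 with no filter. In the last 2 settings no probe set of any gene was called, and the Igf1 adjusted p was 0.20 and 0.59. The birth effect in limma was estimated within vessel, and no further block could be fitted, since each state has 1 array per chip. The number of arrays, and signals under the floor in 1 or more states for 11 of the 31 probe sets, limit all values.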
